A study of Mus musculus with 6 samples.

Results

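p140Cap, encoded by Srcin1, and 9 genes whose proteins act with it at cell adhesions were examined in RNA from TuBo cells. The members were chosen by gene symbol and are Srcin1, Src, Csk, Bcar1, Cttn, Vcl, Ptk2, Pxn, Tiam1 and Mapre3. All 10 were found among the 21960 genes of the deposited count table, and all 10 had enough reads to enter the 11800 genes tested. TuBo is a cell line established from a spontaneous mammary tumor of a BALB/c mouse that carries activated rat HER2/neu under the MMTV promoter, and every library of the series shares this background. The mock group held 3 libraries of control cells, given as genotype wt in the labels. The p140Cap group held 3 libraries of cells overexpressing p140Cap from a retroviral cDNA in pBabe-puro, made by puromycin selection and by pooling clones grown from single cells. The p140Cap group is thus one set of selected clones, and neither the labels nor the methods tell whether the mock cells were cloned in the same way or whether replicates of a group were separate cultures. The p-values therefore measure the spread between these libraries, which may be technical. The series text speaks of mice and the sample labels of cell lines, and the libraries were taken here to be from the TuBo line of the methods.

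p140Cap is a scaffold protein with no enzymatic activity of its own. It binds the SH3 domain of the tyrosine kinase Src and the C-terminal Src kinase Csk, which phosphorylates the inhibitory C-terminal tyrosine of Src, and in epithelial tumor cells it is known for limiting integrin- and growth factor-dependent Src signaling, migration and invasion. Its other partners include the docking protein p130Cas (Bcar1), the actin-binding proteins cortactin (Cttn) and vinculin (Vcl), and the microtubule plus-end protein EB3 (Mapre3). FAK (Ptk2) and paxillin (Pxn) form the adhesion module on which Src and p130Cas act, and Tiam1 is an exchange factor that loads the small GTPase Rac with GTP.

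Most partner genes moved by small amounts. Outside Srcin1 itself, 6 of the 9 partners were higher in p140Cap cells, 1 was lower and 2 were not called, and the largest change among the 9 was 1.99-fold either way. The higher genes were Mapre3, Pxn, Cttn, Vcl, Bcar1 and Ptk2, the lower gene was Tiam1, and the kinase pair Src and Csk was not called. A gene was called when its adjusted p from the quasi-likelihood test of edgeR, corrected over all 11800 genes, was under 0.05. Calls were common in these data, because 71.1% of all genes tested were called, 35.2% as higher and 35.8% as lower in p140Cap cells, so 8 called members of 10 (80%) lie near the background. The CPM ranges of the groups did not overlap for 8 members and for 73.4% of all genes tested. The median absolute log2 fold change of the 9 partners was 0.32, beside 0.32 over all genes tested, and their median log2 fold change was 0.26 against 0.00 over all genes. Total reads were between 33058719 and 75506562 in the mock libraries and between 13770385 and 15364850 in the p140Cap libraries, so even the shallowest mock library exceeded the deepest p140Cap library. CPM denotes reads per 1000000 reads after TMM adjustment of the library size, and log2 fold changes are p140Cap over mock throughout.

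Promoter sequences of a few partners are shown first, as the letters around the starts of 2 genes that rose, 1 that fell and 1 that was not called. RefSeq windows of 300 bases, from 250 bases before to 50 bases after an annotated start on GRCm38.p6, were held for 6 of the 10 members, namely Src, Csk, Bcar1, Vcl, Tiam1 and Mapre3. For Csk, Bcar1, Tiam1 and Mapre3 the table held 2 windows each, and the first is printed for Tiam1 and Mapre3. The Vcl window lies at chr14:20929148-20929447 on the plus strand and the Mapre3 window at chr5:30814391-30814690 on the plus strand. The Tiam1 window lies at chr16:89974650-89974949 on the minus strand and the Src window at chr2:157424043-157424342 on the plus strand. The whole of the Tiam1 window and of the Src window lies inside the span of its gene, at an annotated start within it. Capitals mark every match, on either strand, to the motifs searched, which were the GC box GGGCGG, the CCAAT box, the AP-1 motif TGANTCA, the CRE motif TGACGTCA, the TEAD motif GGAATG, the E-box CACGTG and the CArG box. Vcl and Mapre3 were higher in p140Cap cells, Tiam1 was lower and Src was not called.
Vcl: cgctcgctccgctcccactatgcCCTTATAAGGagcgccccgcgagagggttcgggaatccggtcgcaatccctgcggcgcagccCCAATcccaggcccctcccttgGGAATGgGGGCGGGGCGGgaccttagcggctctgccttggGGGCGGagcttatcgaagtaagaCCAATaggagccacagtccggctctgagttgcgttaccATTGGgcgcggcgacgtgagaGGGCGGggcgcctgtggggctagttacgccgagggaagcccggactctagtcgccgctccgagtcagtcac
Mapre3: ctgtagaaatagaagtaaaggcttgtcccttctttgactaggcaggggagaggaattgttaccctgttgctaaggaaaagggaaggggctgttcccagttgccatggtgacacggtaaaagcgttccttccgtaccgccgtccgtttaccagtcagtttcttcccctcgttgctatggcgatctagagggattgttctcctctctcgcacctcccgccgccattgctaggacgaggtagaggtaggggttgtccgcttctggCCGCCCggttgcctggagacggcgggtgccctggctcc
Tiam1: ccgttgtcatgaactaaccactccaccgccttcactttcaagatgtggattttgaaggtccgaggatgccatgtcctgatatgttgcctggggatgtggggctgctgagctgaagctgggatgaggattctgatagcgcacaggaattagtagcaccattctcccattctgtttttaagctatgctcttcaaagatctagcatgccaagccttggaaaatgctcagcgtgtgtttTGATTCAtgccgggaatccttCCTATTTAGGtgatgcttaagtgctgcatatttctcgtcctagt
Src: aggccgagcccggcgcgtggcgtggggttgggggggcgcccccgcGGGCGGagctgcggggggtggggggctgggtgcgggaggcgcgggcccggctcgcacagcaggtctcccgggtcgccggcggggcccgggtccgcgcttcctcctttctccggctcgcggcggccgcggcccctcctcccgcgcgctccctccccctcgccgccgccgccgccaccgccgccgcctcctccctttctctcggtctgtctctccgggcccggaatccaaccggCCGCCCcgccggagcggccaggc
The Vcl window held 4 GC boxes, 2 of which overlap in a single run, 3 CCAAT boxes, 1 TEAD motif and 1 CArG box, together with 30 CpG dinucleotides. Among the 32851 mouse windows of the same length, 35.7% held a GC box, 37.4% a CCAAT box, 14.7% a TEAD motif and 1.63% a CArG box, and the median window held 7 CpG. The Tiam1 window held 1 AP-1 motif, a motif present in 7.81% of all windows, 1 CArG box and 7 CpG, whereas its second window, not printed, held 1 CCAAT box, no AP-1 motif, no CArG box and 9 CpG. The Mapre3 window held 1 GC box and 17 CpG, and its second window held no GC box, 1 TEAD motif and 5 CpG. The Src window held 2 GC boxes and 47 CpG, the highest CpG count among the windows of the members. No CRE motif or E-box, present in 1.79% and 7.15% of all windows, was in the 4 printed windows. These matches describe the letters alone, and no binding was measured.

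Srcin1 carries the transgene, so its level checks which cells each library came from. The gene (ENSMUSG00000038453) spans chr11:97509340-97575246 on the minus strand of GRCm38.p6. It measured 15.6, 12.8 and 16.6 CPM in mock replicates 1, 2 and 3, and 2265, 2520 and 2244 CPM in p140Cap replicates 1, 2 and 3. All 6 libraries therefore matched their labels, with every p140Cap library far above every mock library. The means were 14.98 ± 1.96 CPM in mock and 2343 ± 153 CPM in p140Cap cells (SD, n = 3 each), a 156-fold difference and a log2 fold change of 7.29 (SE 0.09, 95% interval 7.10 to 7.48, edgeR adjusted p = 4.92e-20). Srcin1 moved from position 8534 to position 20 among the tested genes ordered by CPM, and its reads took between 0.222% and 0.248% of each p140Cap library. Mock cells were not at 0, since their libraries held 1192, 509 and 552 Srcin1 reads. Reads of the retroviral cDNA and of the cell's own gene cannot be told apart in gene-level counts.

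The kinase and its inhibitor showed no called difference. Src, the founding non-receptor tyrosine kinase of its family, measured 182, 169 and 194 CPM in the mock libraries and 170, 200 and 172 CPM in the p140Cap libraries. The groups overlapped, and p140Cap replicate 2 was above the other p140Cap libraries. The log2 fold change of Src was -0.010 (SE 0.06), with a 95% interval of -0.14 to 0.12, and the edgeR adjusted p was 0.894. Csk measured 75.8, 69.9 and 81.4 CPM in mock and 64.6, 75.5 and 69.9 CPM in p140Cap cells. These ranges overlapped as well, and the log2 fold change was -0.11 (SE 0.06, interval -0.25 to 0.02, edgeR adjusted p = 0.13). The Csk call depended on single libraries, since Csk was called lower when mock replicate 2 was left out (log2 fold change -0.17, edgeR adjusted p = 0.0252) or when p140Cap replicate 2 was left out (-0.17, adjusted p = 0.0256). Of the annotated exon bases of Csk, 11.4% are shared with a long noncoding RNA on the opposite strand, and no source used here states whether reads were counted by strand.

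**Figure D1:**
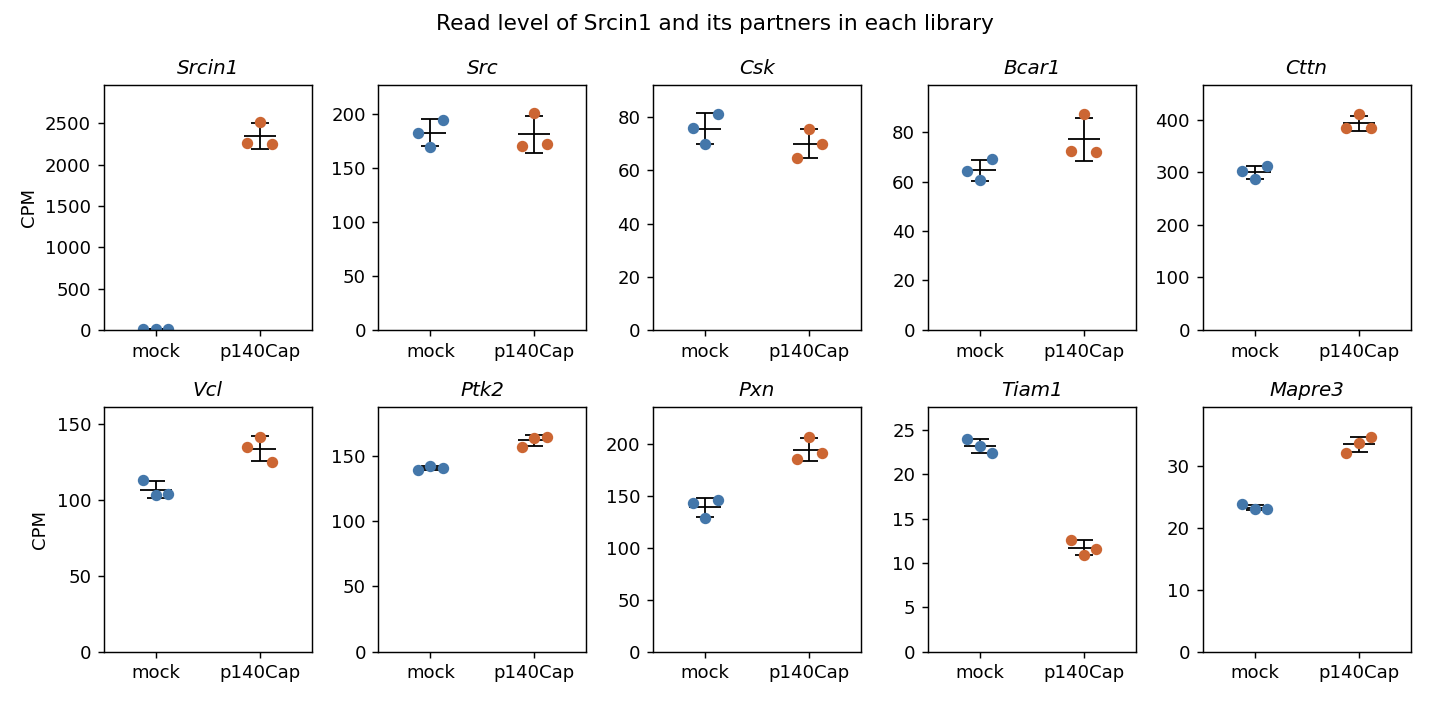
Read level (CPM, linear axis from 0, a separate scale for each gene) of the 10 members in each of the 3 mock and 3 p140Cap libraries, with points for libraries, horizontal bars for means and whiskers for SD. Srcin1 rises from 14.98 to 2343 CPM, Src and Csk overlap between groups, Tiam1 lies lower in all p140Cap libraries, and the other 6 genes lie higher in all of them.

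Scaffolds and adaptors of the focal adhesion rose by modest amounts. Paxillin, the LIM-domain scaffold that recruits FAK and vinculin, measured 143, 129 and 146 CPM of Pxn in mock and 186, 207 and 192 CPM in p140Cap cells. No p140Cap library came near the mock range, and the log2 fold change was 0.49 (SE 0.06, edgeR adjusted p = 5.33e-07). Ptk2, which encodes focal adhesion kinase, measured 139, 142 and 140 CPM in mock and 157, 164 and 165 CPM in p140Cap cells. Its mock libraries were the most alike of any member, with a coefficient of variation of 0.917%, and its log2 fold change was 0.20 (SE 0.05, edgeR adjusted p = 0.000711). Bcar1, the Src substrate p130Cas, measured 64.4, 60.5 and 69.0 CPM in mock and 72.3, 87.2 and 72.0 CPM in p140Cap cells. The groups were apart by a narrow margin, with the highest mock library at 69.0 and the lowest p140Cap library at 72.0 CPM. The log2 fold change of Bcar1 was 0.26 (SE 0.07, edgeR adjusted p = 0.00306), and it was 0.16 (adjusted p = 0.0271) without p140Cap replicate 2.

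The actin-linked partners also rose. Cttn, which encodes cortactin, an Arp2/3-binding protein of branched actin, measured 302, 287 and 311 CPM in mock and 385, 410 and 384 CPM in p140Cap cells. Its log2 fold change was 0.39 (SE 0.05, edgeR adjusted p = 1.78e-06), and the groups did not overlap. Vcl, which encodes vinculin, the protein that ties talin to actin at adhesions, measured 113, 103 and 104 CPM in mock and 135, 141 and 125 CPM in p140Cap cells. Its log2 fold change was 0.32 (SE 0.05, edgeR adjusted p = 4.72e-05), again with no overlap. Vinculin shares 24.6% of its annotated exon bases with Ap3m1, a gene on the opposite strand that was lower in p140Cap cells, with 62.6 ± 1.99 CPM in mock and 52.2 ± 6.75 CPM in p140Cap cells (log2 fold change -0.26, edgeR adjusted p = 0.00282). Any exchange of reads between Vcl and Ap3m1 was not tested.

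The 2 partners outside the adhesion core moved in opposite directions, and Tiam1 moved furthest of all partners. Mapre3, which encodes the microtubule end-binding protein EB3, measured 23.8, 23.0 and 23.0 CPM in mock and 32.2, 33.7 and 34.7 CPM in p140Cap cells. This was the highest increase among the partners, at a log2 fold change of 0.52 (SE 0.06, interval 0.39 to 0.65, edgeR adjusted p = 5.95e-07). Its interval overlapped that of Pxn (0.37 to 0.60), so the order of these genes is not settled. Tiam1 measured 24.0, 23.2 and 22.4 CPM in mock and 12.6, 10.9 and 11.6 CPM in p140Cap cells. The highest p140Cap library was thus well below the lowest mock library, and the means were 23.2 ± 0.795 and 11.7 ± 0.849 CPM. The log2 fold change of Tiam1 was -0.99 (SE 0.08, interval -1.15 to -0.83, edgeR adjusted p = 3.21e-09), and 10.2% of all genes tested changed by more in either direction. By the same count, 30.3% of genes changed by more than Mapre3, 33.0% by more than Pxn, 41.9% by more than Cttn, 49.3% by more than Vcl, 57.7% by more than Bcar1 and 66.2% by more than Ptk2.

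**Figure D2:**
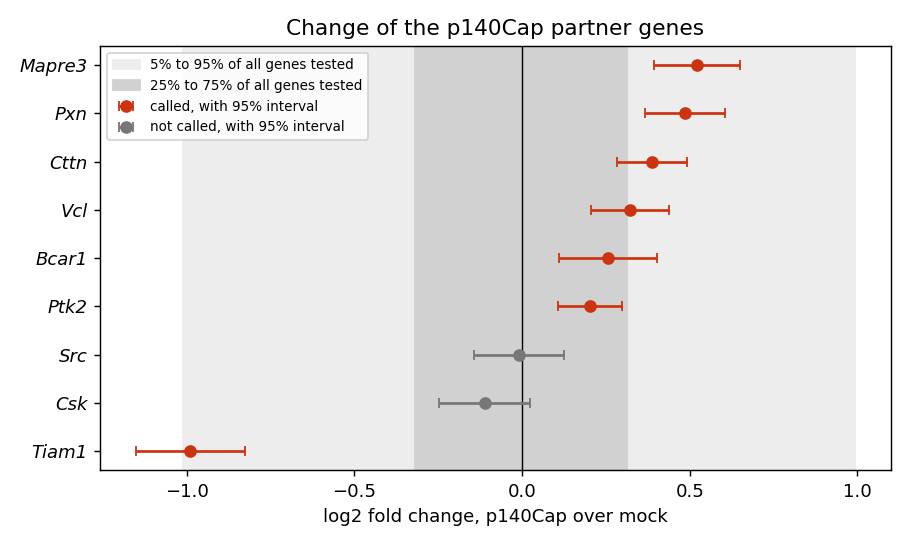
Log2 fold change (p140Cap over mock) of the 9 partner genes with 95% intervals, red where called and gray where not, over bands for 25% to 75% and 5% to 95% of all genes tested. Tiam1 at -0.99 lies near the lower edge of the outer band (-1.01), Mapre3, Pxn, Cttn and Vcl lie above the inner band's upper edge (0.31), and the intervals of Src and Csk cross 0.

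Compared per length, as CPM per kb of annotated exon, the order of the members was led by cortactin in mock cells. The mock levels per exon kb were 51.6 for Cttn, 31.0 for Src, 14.0 for Pxn, 13.1 for Csk, 12.5 for Vcl, 11.1 for Ptk2, 8.64 for Bcar1, 4.89 for Mapre3, 1.88 for Tiam1 and 1.24 for Srcin1. The ranges over libraries overlapped between Pxn and Csk and between Csk and Vcl, and not between the other neighbors. In p140Cap cells, Srcin1 came first with 194 CPM per kb, followed by Cttn with 67.5, Src with 30.7, Pxn with 19.7, Vcl with 15.7, Ptk2 with 12.8, Csk with 12.1, Bcar1 with 10.3, Mapre3 with 7.04 and Tiam1 with 0.949. Here the ranges of Ptk2, Csk and Bcar1 overlapped with those of their neighbors within this trio. Srcin1 thus changed from the lowest level per exon kb among the members to the highest, Csk passed from above to below Vcl, and Tiam1 became the lowest. The exon length used was that of all annotated exons of a gene, which need not be the transcript these cells make, and the order depended on it. With the longest annotated transcript as length, Ptk2 stood 3rd in mock cells with 27.0 CPM per kb, above Csk with 22.3, Pxn with 21.2 and Vcl with 19.5. In p140Cap cells it then stood 4th with 31.1, above Pxn with 29.7. Cttn and Src kept the first and second places in mock cells, and Srcin1, Cttn and Src the first 3 in p140Cap cells, under both lengths.

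Among the Src family kinases, 6 of 9 listed genes were tested, and 2 were higher, 1 was lower and 3 were not called, with a median log2 fold change of -0.06. The lower count was 3 without mock replicate 3 and 2 without p140Cap replicate 1 or 3. With at least 10 reads required in every library, which removed Lck, the lower count was 0 and the median -0.016, and without the filter on low counts these were 3 and -0.089. Lyn, a family member best known from blood cells, rose from 41.9 ± 1.65 to 65.7 ± 5.22 CPM (log2 fold change 0.65, edgeR adjusted p = 3.41e-08). Fyn, a ubiquitous member, rose from 34.6 ± 0.230 to 52.4 ± 1.82 CPM (0.60, adjusted p = 2.06e-08). Yes1, a close relative of Src, was not called, with 93.8 ± 5.24 and 87.1 ± 8.49 CPM, but was called lower without mock replicate 3 (log2 fold change -0.15, edgeR adjusted p = 0.0457) or p140Cap replicate 3 (-0.17, adjusted p = 0.0441). Lck, the lymphocyte kinase, fell on few reads, 121 in all mock libraries and 7 in all p140Cap libraries (log2 fold change -2.30, edgeR adjusted p = 0.000134). Lck entered the test through its mock reads alone, so its call rests on the group where it was high. On the per-length scale Src remained the highest of these kinases in both groups, since Lyn reached 0.284 ± 0.0273 of the Src level in mock and 0.449 ± 0.0300 in p140Cap cells.

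Of 11 regulators of Src activity, Csk included, 3 were higher, 3 were lower and 5 were not called, with a median of 0.02 that had no stable sign, as it lay between -0.04 (without mock replicate 3) and 0.07 (without mock replicate 1). The lower count was 4 without mock replicate 2 or p140Cap replicate 2. The largest called increase was that of Pag1, the membrane adaptor that recruits Csk, from 85.4 ± 2.70 to 118 ± 6.64 CPM (log2 fold change 0.47, edgeR adjusted p = 3.09e-07). Ptpn11, which encodes the phosphatase SHP2, fell from 239 ± 5.15 to 195 ± 10.1 CPM (-0.29, adjusted p = 3.89e-05). Ptpn12, the phosphatase PTP-PEST that acts on p130Cas, also fell (-0.29, edgeR adjusted p = 6.56e-05), as did Ptpn1, the phosphatase PTP1B (-0.27, adjusted p = 0.000277). Matk, the Csk homolog, was scarce and not called, with 1.06 ± 0.214 and 0.875 ± 0.0155 CPM, and 43.5% of its exon bases are shared with Mrpl54 on the opposite strand. The Csk level per exon kb was 0.423 ± 0.00324 of the Src level in mock and 0.395 ± 0.0159 in p140Cap cells. This ratio, unlike the CPM of either gene, did not overlap between groups, with values of 0.420 to 0.426 in mock and 0.384 to 0.413 in p140Cap libraries.

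Of 12 genes of the Cas, Crk, Dock and Elmo module, through which phosphorylated p130Cas activates Rac, 10 were tested, 6 of them higher, 3 lower and 1 not called, with a median of 0.29. Elmo3 was highest among them in change, from 37.6 ± 3.00 to 69.7 ± 5.79 CPM (log2 fold change 0.89, edgeR adjusted p = 2.67e-09). Nedd9, the p130Cas paralog HEF1, rose from 52.7 ± 1.18 to 80.4 ± 4.96 CPM (0.61, adjusted p = 1.83e-08). The remaining Cas relatives were scarce, with no Efs read in any library and 5 pooled Cass4 reads in mock and 2 in p140Cap cells. The Crk adaptors went the other way, Crk from 230 ± 7.77 to 199 ± 8.14 CPM (-0.21, edgeR adjusted p = 0.00111) and Crkl from 52.4 ± 1.57 to 42.5 ± 0.525 CPM (-0.30, adjusted p = 6.86e-05). Elmo proteins did not share a direction, since Elmo1 rose (0.33, edgeR adjusted p = 1.23e-05) and Elmo2 fell from 51.0 ± 0.876 to 38.6 ± 2.87 CPM (-0.40, adjusted p = 8.55e-06). Dock1, the exchange factor that Elmo proteins bind, rose (0.34, edgeR adjusted p = 5.09e-06). Per exon kb, Nedd9 stood at 0.959 ± 0.0447 of the Bcar1 level in mock and at 1.23 ± 0.0641 in p140Cap cells.

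Of 12 genes of the FAK and paxillin families and their partners, 10 were tested, 8 of them higher, 1 lower and 1 not called, with a median of 0.34. The higher count was 7 or 8 when single libraries were left out. The median was 0.22 without p140Cap replicate 1 and also 0.22 without p140Cap replicate 2, and the lower count was 0 without mock replicate 1, p140Cap replicate 1 or p140Cap replicate 3 and 2 without p140Cap replicate 2, with RLE factors or with either other filter on low counts. The FAK paralog Ptk2b (PYK2) rose more than Ptk2, from 46.6 ± 0.428 to 83.5 ± 2.56 CPM (log2 fold change 0.84, edgeR adjusted p = 1.01e-10), and 22.8% of its exon bases are shared with Chrna2 on the opposite strand. The ratio of Ptk2b to Ptk2 per exon kb rose in every p140Cap library, from 0.316 ± 0.00564 to 0.492 ± 0.0218, and with the longest annotated transcript as length from 0.189 to 0.295. The paxillin-associated exchange factors Arhgef6 (0.68, edgeR adjusted p = 6.08e-07) and Arhgef7 (0.49, adjusted p = 7.05e-08), which encode the PIX proteins, and their kinase partner Pak1 (0.46, adjusted p = 8.01e-08) were higher. Pak2 was lower by a small margin (-0.12, edgeR adjusted p = 0.0364), and Rb1cc1, a FAK-binding autophagy protein, was higher by one (0.13, adjusted p = 0.0445). Neither of these 2 calls was stable, as several single libraries ended them. Without mock replicate 1, 2 or p140Cap replicate 1, 3 the edgeR adjusted p of Pak2 was 0.0722, 0.141, 0.0717 and 0.138. Without mock replicate 1, 3 or p140Cap replicate 1, 3 that of Rb1cc1 was 0.0843, 0.173, 0.291 and 0.0902. The paxillin paralogs Tgfb1i1 (Hic-5) and Lpxn (leupaxin) were too scarce for the test, with 32 and 62 pooled reads in mock and 12 and 16 in p140Cap cells.

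**Figure D3:**
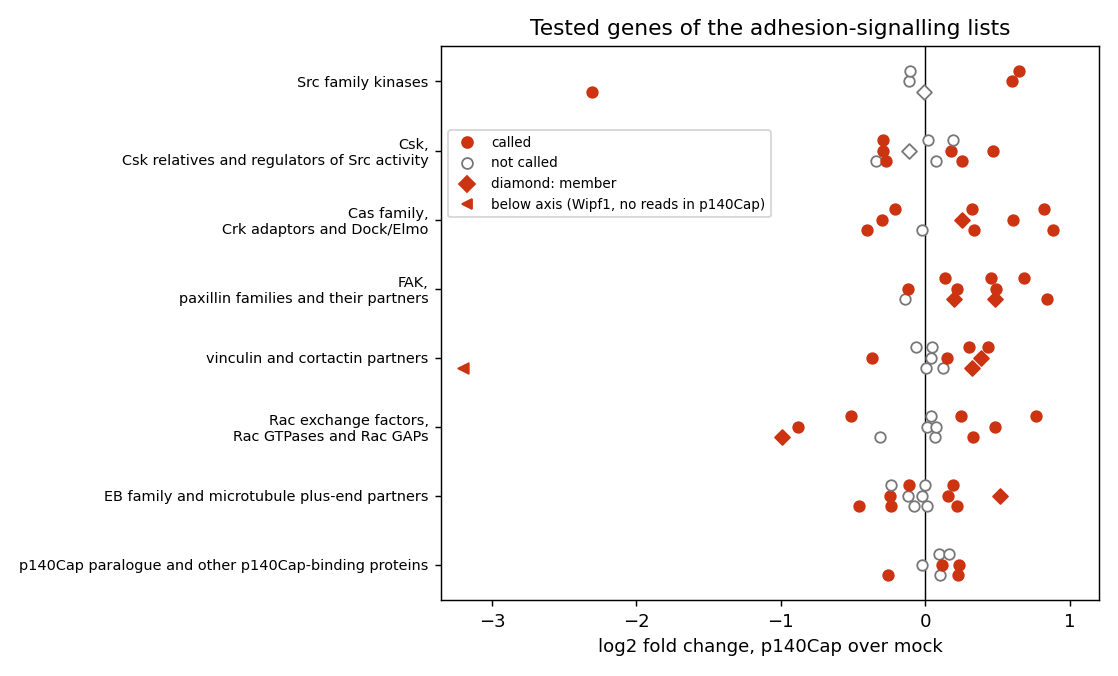
Log2 fold change (p140Cap over mock) of each tested gene in the 8 pathway lists, filled where called, open where not, and diamonds for members. The FAK and paxillin list, which includes the members Ptk2 and Pxn, holds 8 of 10 genes called higher, against 35.2% of all genes tested. This count was 7 or 8 when single libraries were left out, and the lists were chosen with earlier results of these data known. The EB family list holds 4 genes called higher and 4 called lower, and Wipf1, without reads in p140Cap cells, lies beyond the left edge.

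Of 14 vinculin and cortactin partners, 12 were tested, 5 of them higher, 2 lower and 5 not called, with a median of 0.09, which was 0.05 without mock replicate 2 and 0.04 without p140Cap replicate 2. The higher count was 6 without mock replicate 1 or p140Cap replicate 3, and 4 without mock replicate 3 or p140Cap replicate 1 or 2. The median was 0.016 without the filter on low counts, and the lower count was 1 with at least 10 reads required in every library, which removed Wipf1. The cortactin-binding protein gene Cttnbp2nl rose from 120 ± 2.49 to 162 ± 5.69 CPM (log2 fold change 0.44, edgeR adjusted p = 2.07e-07), the largest increase in the list. Talin (Tln1), which recruits vinculin to integrins, was not called, with 353 ± 14.7 and 365 ± 21.4 CPM. Wipf1, which encodes the WASP-interacting protein WIP, had 160 reads in mock and 0 in p140Cap cells, pooled over replicates, at least 15.5-fold lower in p140Cap cells when 3 reads over that group are taken as the limit. Wipf1 entered the test through its mock reads alone, so its call rests on the group where it was high. The cortactin paralog Hcls1 had 10 pooled reads in mock and 1 in p140Cap cells and was not tested.

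Of 16 Rac exchange factors, Rac GTPases and Rac GAPs, 12 were tested, 4 of them higher, 3 lower and 5 not called, with a median of 0.05, which was 0.03 without mock replicate 3 and 0.02 without p140Cap replicate 2. The higher count was 5 without mock replicate 1. The Tiam1 paralog Tiam2 moved against Tiam1, from 4.96 ± 0.0845 to 6.96 ± 0.335 CPM (log2 fold change 0.48, edgeR adjusted p = 0.000418), and 19.8% of its exon bases are shared with Tfb1m on the opposite strand. Per exon kb, Tiam1 was 5.93 ± 0.122 times the Tiam2 level in mock and 2.14 ± 0.189 times in p140Cap cells. Prex1, an exchange factor driven by phosphoinositides and G-protein subunits, was higher on low values, with 2.14 ± 0.154 and 3.62 ± 0.980 CPM (0.77, edgeR adjusted p = 0.000752). The GTPase Rac1 itself was not called, at 345 ± 12.6 and 353 ± 14.4 CPM, and 56.1% of its exon bases are shared with Daglb on the opposite strand. Rac3 fell from 8.74 ± 0.760 to 6.10 ± 0.827 CPM (-0.51, edgeR adjusted p = 0.000553). Arhgap22, a GAP that switches Rac off, fell from 1.88 ± 0.147 to 1.02 ± 0.285 CPM (-0.88, adjusted p = 0.00205), and 28.6% of its exon bases are shared with a long noncoding RNA on the opposite strand.

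Of 14 genes of the EB family and microtubule plus-end partners, all were tested, 4 of them higher, 4 lower and 6 not called, with a median of -0.05, which was -0.02 without mock replicate 1, -0.09 without mock replicate 3 and -0.08 without p140Cap replicate 1 or without the filter on low counts. The lower count was 5 without mock replicate 3 and 3 without any other single library, and the higher count was 3 without p140Cap replicate 1. Mapre1, which encodes EB1, moved against Mapre3, from 198 ± 8.70 to 144 ± 3.49 CPM (log2 fold change -0.46, edgeR adjusted p = 1.79e-07). The third family gene, Mapre2, was scarce and not called, with 2.70 ± 0.0692 and 2.28 ± 0.272 CPM. Per exon kb, Mapre3 stood at 0.410, 0.375 and 0.409 of the Mapre1 level in the mock libraries and at 0.745, 0.813 and 0.800 in the p140Cap libraries. The 2 genes thus came closer on this scale. With the longest annotated transcript as length, the ratio was 0.463 to 0.507 in the mock and 0.921 to 1.00 in the p140Cap libraries, so the pair stood near equality in p140Cap cells on that scale. Clip2, which encodes a plus-end linker, showed the largest increase of the list outside the members, from 119 ± 11.2 to 139 ± 7.002 CPM (0.22, edgeR adjusted p = 0.00377).

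**Figure D4:**
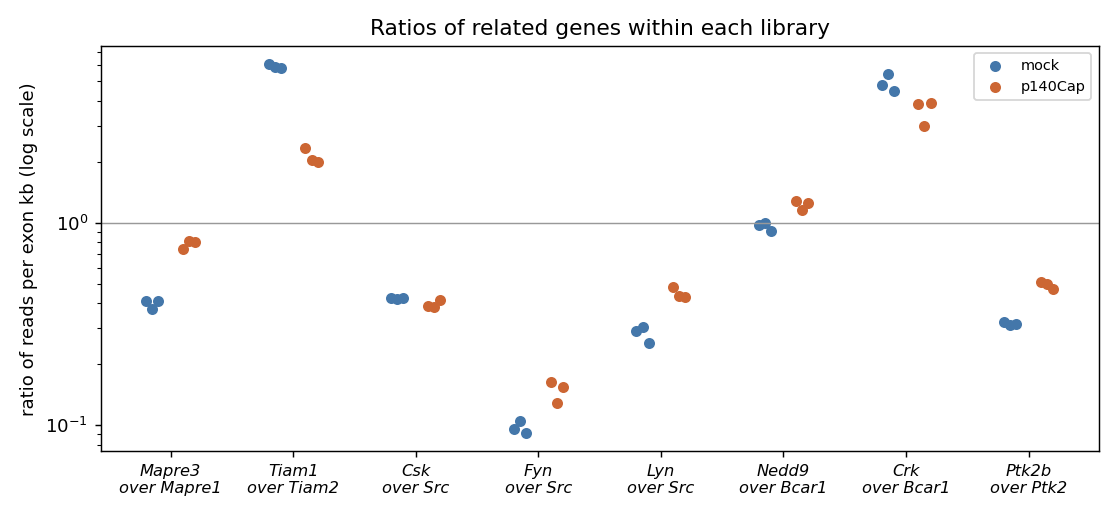
Ratio of CPM per exon kb between 8 pairs of related genes in each library (log axis), blue for mock and orange for p140Cap. Mapre3 over Mapre1 rises from 0.398 to 0.786 and Tiam1 over Tiam2 falls from 5.93 to 2.14.

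For the 8 within-library ratios plotted, 3 libraries against 3 cannot give less than p = 0.1 in a two-sided exact permutation test, and each of the 8 stood at 0.1 before and after Benjamini-Hochberg adjustment. The pairs were chosen after the values of their genes had been seen, and 73.4% of single genes already did not overlap between groups, so the separation of these ratios is a description only. A ratio within a library does not depend on the scaling of that library.

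Of 10 further genes, the p140Cap paralog and other p140Cap-binding proteins, 8 were tested, 3 of them higher, 1 lower and 4 not called, with a median of 0.11, which was 0.07 without p140Cap replicate 2. The higher count was 2 when any single library was left out. Etl4, the mouse paralog of Srcin1 also known as SKT, rose from 114 ± 5.24 to 134 ± 5.46 CPM (log2 fold change 0.23, edgeR adjusted p = 0.000546). Per exon kb, Etl4 stood at 6.78 against 1.24 for Srcin1 in mock cells and at 7.97 against 194 in p140Cap cells, so the transduced gene overtook its paralog. With the longest annotated transcript as length these levels were 14.9 against 1.98 in mock and 17.6 against 310.0 in p140Cap cells. Axin1, a scaffold of the β-Catenin destruction complex, fell from 74.99 ± 1.06 to 62.8 ± 2.82 CPM (-0.26, edgeR adjusted p = 0.000243). Ctnnb1, which encodes β-Catenin, rose from 2089 ± 13.4 to 2444 ± 61.9 CPM (0.23, edgeR adjusted p = 0.000344), and Gsk3b was not called (0.097, adjusted p = 0.114). The synaptic partners of p140Cap were absent or scarce, with no Snap25 read in any library and 52 pooled Syp reads in mock and 12 in p140Cap cells. Over the 89 listed genes that are not members, 74 were tested and 62.2% of these were called, 29 higher and 17 lower, below the 71.1% over all genes tested.

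The genes whose profile over the 6 libraries was most like that of Srcin1 were found from the root mean square difference of log2 CPM, each gene set against its own mock mean. The 5 nearest were Decr1 (1.16), Tns4 (1.74), Zfp217 (1.96), Car9 (2.25) and Rprml (2.27), where 0 would be the same profile. The values of Decr1 and Rprml, which had no or almost no mock reads, are set in part by the prior count of 2 reads added before taking logs, so their places in this order are not measurements. Decr1, a mitochondrial enzyme of unsaturated fatty acid oxidation, was listed at 0 in all mock replicates and had 46, 41 and 48 reads in p140Cap replicates 1, 2 and 3, at least 155-fold higher when 3 reads over the mock group are taken as the limit. Tns4, a tensin of focal adhesions, rose from 1.58 ± 0.120 to 46.7 ± 4.63 CPM (log2 fold change 4.86, edgeR adjusted p = 1.38e-16). Zfp217, a zinc finger transcription factor, rose from 75.8 ± 1.49 to 1744 ± 14.8 CPM (4.52, adjusted p = 4.77e-20), and Car9, a carbonic anhydrase, from 9.10 ± 0.660 to 158 ± 8.83 CPM (4.11, adjusted p = 3.08e-18). Rprml had 5 reads in mock and 57 in p140Cap cells, pooled over replicates. This likeness rests on the step between the groups and, with 6 libraries in 2 groups, is a description only.

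Markers of cell types were read beside these results. The summed CPM of 7 mammary epithelial genes was between 5462 and 5805 in the mock and between 6344 and 6519 in the p140Cap libraries, and 6 of the 7 passed the filter. These did not move together, as Epcam and Krt18 were called higher, Krt8 and Erbb2 were not called, Krt19 was too scarce for the test, and Cldn7 fell from 222 ± 11.8 to 166 ± 11.5 CPM (log2 fold change -0.41, edgeR adjusted p = 3.63e-06). Cdh1 was called higher by a small margin (0.11, edgeR adjusted p = 0.0477), and leaving out any single library ended that call, with adjusted p between 0.0519 and 0.186. Of the fibroblast markers 5 of 8 were at 0 in every library, Col1a2, Col3a1, Dcn, Lum and Thy1, with sums of 9.97 to 10.5 CPM in mock and 11.3 to 14.1 CPM in p140Cap cells. Of the leukocyte markers 5 of 7 were at 0, Ptprc among them, with sums of 2.04 to 2.34 and 3.23 to 4.09 CPM. Endothelial markers summed to at most 0.734 CPM and adipocyte markers to at most 0.588 CPM in any library. Neuronal markers summed to between 101 and 108 CPM in mock and between 156 and 170 CPM in p140Cap cells, but Snap25 and Tubb3 were at 0 and the sum was mainly Map2, with 105 ± 3.71 and 163 ± 7.09 CPM. Apart from Pdgfra, each tested marker of these other cell types was called higher. Col1a1 rose from 2.97 to 5.02 CPM (0.80, edgeR adjusted p = 0.000185) and Cd68 from 2.14 to 3.76 CPM (0.83, adjusted p = 9.37e-05). Map2 rose by 0.64 (edgeR adjusted p = 3.01e-09), and Pecam1 by 1.25 on 40 pooled reads in mock and 28 in p140Cap cells. In bulk RNA, more cells of a type and more RNA per cell cannot be told apart.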

How the data were processed

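RNA from 3 mock and 3 p140Cap TuBo libraries was poly(A)-selected and, by the paper's methods, sequenced as stranded TruSeq libraries on an Illumina NextSeq, with both groups mixed within flow cells. The authors deposited counts, whole numbers of reads per gene for 21960 genes, without normalization and with replicates apart. The submitters' processing notes name STAR 2.5, RSEM 0.1.1 and mm10, whereas the paper names GRCm39. No source used here states the annotation release, whether reads were counted by strand, or whether the whole numbers are rounded RSEM estimates. If they are, reads on shared exons were allotted by a model, and values of a few reads are estimates.

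Counts were analyzed in R 4.3.3. TMM factors, filterByExpr (minimum count 10) and the quasi-likelihood test of edgeR 4.0.16 were used, with group as the sole term, over 11800 genes. The SE was computed as |log2 fold change| over the root of the F statistic, and 95% intervals use the degrees of freedom of the test. Totals per library were 13770385 to 75506562 reads and the common coefficient of biological variation was 4.57%, so differences in genes with few reads are the least precise. Limits for genes at 0 cover counting error only. No library was a copy of another, since the mean chi-square of same-group pairs was at least 1.75, where 1 is sampling noise. The scripts were tested on simulated data.

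Exon lengths and overlaps came from GENCODE by Ensembl identifier (98.6% matched). Gene positions and promoter windows came from RefSeq on GRCm38.p6, which is mm10.

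Members and lists were chosen with earlier results of these data known. Genes named are the members, their paralogs, the called gene with the highest and the lowest change in each list, members left out, and the 5 genes most like Srcin1. Named after their values were seen were Crk, Crkl, Rac1, Rac3, Arhgef6, Arhgef7, Pak1, Dock1, Elmo1, Ptpn1, Ptpn12, Tln1, Rb1cc1, Ctnnb1 and Gsk3b, and Ap3m1 for its overlap, and the cell type markers. Alternatives were RLE factors, DESeq2 1.42.0, limma-voom (limma 3.58.1), other filters, thinning to the smallest total, the replicate number as a block, leaving out each library, and transcript length in place of exon length.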

Additional observations from a re-analysis of the deposited data

How the results depend on the processing

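Srcin1, Tiam1, Mapre3, Pxn, Cttn, Vcl, Bcar1 and Ptk2 kept direction and call under all 13 alternatives, with log2 fold changes of 7.19 to 7.34 for Srcin1 and -1.05 to -0.94 for Tiam1. The other 2 members did not. Csk was called lower without the filter on low counts (-0.14, edgeR adjusted p = 0.0269), which made 2 members lower in place of 1, and leaving out single libraries gave -0.17 to -0.058 for Csk and 1 to 2 members called lower. Src, never called, lay between -0.093 and 0.033 when single libraries were left out, and turned positive without mock replicate 3 (0.033), p140Cap replicate 1 (0.032) or p140Cap replicate 3 (0.020). Called Src family kinases numbered 5 without the filter, in place of 3, and 3 to 5 when single libraries were left out. Dividing by the longest annotated transcript moved the median level per kb of the members in mock cells from 11.8 to 20.3 and moved Ptk2 up in their order. The cause of these changes was not tested. Replicate numbers did not pair the samples, as same-numbered libraries correlated at -0.106 to -0.03 and 0 of 3 correlated best with its own number. With the replicate block, 8034 genes were called in place of 8387, and no member's call changed. The block ended the calls of Pak2 (adjusted p = 0.0597) and Rb1cc1 (0.0739). Among the single genes followed under every alternative, calls changed in 14 cases from called to not called, all of Pak2 or Rb1cc1. In 6 cases, all of Csk or Yes1, they changed from not called to called. This tally leaves out other listed genes, such as Cdh1, whose call ended when any single library was left out. All p140Cap libraries were shallower than all mock libraries, so depth limits listed genes with few reads, such as Lck, Wipf1 and Prex1.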

Other observations

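p140Cap replicate 2 was the highest p140Cap library for 7 of the 10 members, Srcin1, Src, Csk, Bcar1, Cttn, Vcl and Pxn, whereas Mapre3 and Ptk2 were highest in p140Cap replicate 3 and Tiam1 in p140Cap replicate 1. Mock replicate 2 was the lowest mock library for 8 members, and mock replicate 3 the highest for 6. Over all 11800 genes tested, p140Cap replicate 2 was the highest p140Cap library for 39.4%, mock replicate 2 the lowest mock library for 36.7% and mock replicate 3 the highest for 37.9%. Each group has only 3 libraries, so this is a description of these libraries.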
